A study of Homo sapiens with 30 samples.

Results

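The cytosolic ribosome is the particle on which nuclear genes are translated. Its small 40S subunit reads the messenger RNA and its large 60S subunit joins amino acids, and each subunit is built in the nucleolus from ribosomal RNA and a fixed set of proteins. The messenger RNAs of these proteins are among the most abundant of dividing cells. Many of them begin with a terminal oligopyrimidine (TOP) motif, a C followed by a run of pyrimidines at the very 5′ end, through which growth signals set their translation. The genes described here are the 81 protein-coding members of this set among the 60664 gene identifiers of the count files. A member has a symbol made of RPL or RPS and a number, with at most a suffix A, X or L, or is RPSA, RPLP0, RPLP1 or RPLP2; kinases of the RPS6K family and genes on chromosome Y were left out. Of the 81, 32 encode 40S proteins and 49 encode 60S proteins. They lie on 21 chromosomes, and 4 of them (RPS4X, RPL10, RPL39 and RPL36A) are on chromosome X.

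The levels came from 30 poly(A)-selected RNA-seq libraries of human cell lines, in 10 groups of 3. Wild-type K562 cells, a chronic myeloid leukaemia line, and wild-type HCT116 cells, a colorectal carcinoma line, received 10 µM of DNMT1i, a selective inhibitor of the maintenance DNA methyltransferase DNMT1, or 0.1% DMSO for 3 days. K562 cells with dTAG degrons knocked into both SON and SRRM2, scaffold proteins of nuclear speckles, received 500 nM dTAG-13 or DMSO for 6 hr; this line is a single clone. HT-CTCF cells are a clonal HCT116 line, homozygous for a HaloTag knocked into CTCF. They were given DNMT1i (10 µM) or 0.1% DMSO for 1 day. In 2 of the 4 groups HaloPROTAC3, which directs HaloTag-CTCF to the proteasome, was added before and during that day. All 12 HT-CTCF libraries carry the tag, as all 6 speckle libraries carry the degrons. SON, SRRM2 and CTCF are removed as proteins, so their RNA does not check the treatment. Per the RNA-seq methods of the study, the 3 replicates of a condition were grown and treated as separate cultures. Those methods go on to detail only the HT-CTCF and speckle experiments, and for the wild-type cells the labels do not name separate cultures, so there the spread between libraries may be technical.

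Gene counts ranged from 4243092 to 21228534 per library, with the HT-CTCF libraries the shallowest. The line markers matched the labels: the summed level of 14 K562 markers was at least 620 CPM (a gene's counts scaled to a common library size with TMM factors) in every K562 library and at most 15.7 CPM in every HCT116 library, and all 4 genes used to mark the set (RPS2, RPLP0, RPS13 and RPS29) were abundant in every library. RPS29 was the lowest of the 4, at 170 to 453 CPM. Members took between 4.89% and 7.82% of each library's gene counts. Most members have processed pseudogenes, 1587 in all for 77 members, and reads that align equally well to a gene and a copy were not counted, so the level of a member with close copies is uncertain. A further 8 members overlap another coding gene on the same strand, among them RPL17, RPL22, RPL36, RPL36A, RPS10 and RPS15A, and their levels are uncertain for that reason. In bulk RNA, fewer cells of a type and less RNA per cell cannot be told apart.

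The start of 6 members whose values are given below is shown, 3 with the TOP motif and 3 without it, to illustrate what the motif looks like. They were picked with their values known. Each line holds 15 bases before and 15 bases from the annotated RefSeq start (GRCh38.p14). Capitals mark the C and the pyrimidines that follow it at the start, or, where that motif is absent, the first 5 bases of the transcript. RPLP0 (chr12:120201097-120201126, minus strand), RPS13 (chr11:17077653-17077682, minus strand) and RPL22 (chr1:6199581-6199610, minus strand) hold the motif. RPS29 (chr14:49598696-49598725, minus strand), RPS27L (chr15:63157463-63157492, minus strand) and RPL10L (chr14:46651767-46651796, minus strand) do not hold it at this start.
RPLP0: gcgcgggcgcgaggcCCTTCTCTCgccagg
RPS13: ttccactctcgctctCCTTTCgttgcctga
RPL22: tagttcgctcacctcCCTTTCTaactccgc
RPS29: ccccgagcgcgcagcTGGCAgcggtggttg
RPS27L: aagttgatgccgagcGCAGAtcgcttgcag
RPL10L: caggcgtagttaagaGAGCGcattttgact

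A promoter row was found for 64 of the 81 members, and 46 of them (71.9%) had a C followed by at least 4 pyrimidines exactly at an annotated start, read on the transcribed strand. The same letters stood at the start of 1402 of 27195 genes with a row (5.16%). A start that is annotated a few bases off the true one would not be matched. The 300 bases around the start held a median of 25 CG dinucleotides in the members and 14 over all genes.

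In HCT116 cells, 3 days of DNMT1i lowered nearly every cytosolic ribosomal protein mRNA relative to other mRNAs. Of the 81 members, 75 fell and 4 rose (edgeR's quasi-likelihood test, adjusted p below 0.05), while 27.9% of the 15885 genes tested were called lower and 33.8% higher. The median log2 fold change over the members was -0.55, a level 31.7% lower, beside 0.02 over all genes. The members that rose were RPL39L, RPL10L, RPL3L and RPS27L, which are variant copies of RPL39, RPL10, RPL3 and RPS27 that are usually known from testis, muscle or stressed cells. RPL39L, RPL10L and RPL3L passed the low count filter only through the DNMT1i libraries, so the direction of their calls was set by that filter. RPL17 and RPL36A did not pass the test.

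RPS2, a 40S protein near the messenger RNA entry channel, stood at 1782, 1736 and 1959 CPM in DMSO and at 939.2, 1053 and 905.3 CPM in DNMT1i. RPLP0, the 60S stalk protein that holds the RPLP1 and RPLP2 pairs, stood at 2341, 2204 and 2594 CPM and then at 1321, 1415 and 1296 CPM. RPS13, a 40S protein, stood at 676.1, 560.8 and 635.5 CPM and then at 453.2, 410.2 and 432.7 CPM. For these genes every DNMT1i library lay below every DMSO library. The log2 fold change was -0.92 for RPS2 (SE 0.08, edgeR adjusted p = 8.4e-09), -0.82 for RPLP0 (SE 0.08, adjusted p = 3.65e-08) and -0.53 for RPS13 (SE 0.08, adjusted p = 9.72e-06). RPS29, a small zinc-binding 40S protein, stood at 434.4, 427.1 and 368.5 CPM in DMSO and at 413.8, 290.8 and 338.5 CPM in DNMT1i. Its groups overlapped, its log2 fold change was -0.24 (SE 0.10, adjusted p = 0.0491), and the call was lost under several other settings. Over the members, 74 lay wholly below the DMSO range and 4 wholly above it, against 30.2% and 34.9% of all genes tested.

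The fall reached both subunits. Of the 32 40S genes 31 fell, with a median of -0.53 on the log2 scale, and of the 49 60S genes 44 fell, with a median of -0.59. The middle of the members was narrow, with quartiles of -0.67 and -0.47, and without the 4 L-suffix variants the values ran from -0.97 to -0.13. The largest fall was that of RPL22, a 60S protein with its own RNA-binding role outside the ribosome. It stood at 80.96, 99.51 and 82.32 CPM in DMSO and at 47.45, 39.78 and 47.13 CPM in DNMT1i, a log2 fold change of -0.97 (SE 0.09, adjusted p = 2.85e-08). RPL5 and RPL11, which form the 5S ribonucleoprotein and can bind MDM2 when assembly fails, fell by 0.71 and 0.61 on the log2 scale. The stalk proteins RPLP1 and RPLP2 fell by 0.71 and 0.45, and RPL30 fell by 0.79. Of the X-linked members, RPS4X fell by 0.57, RPL10 by 0.68 and RPL39 by 0.25, and RPL36A, at only 1.91 to 2.69 CPM in HCT116 cells in DMSO, had a log2 fold change of -0.13 (SE 0.21, adjusted p = 0.616). RPL17 had a log2 fold change of -0.29 (SE 0.20, adjusted p = 0.200).

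**Figure D1:**
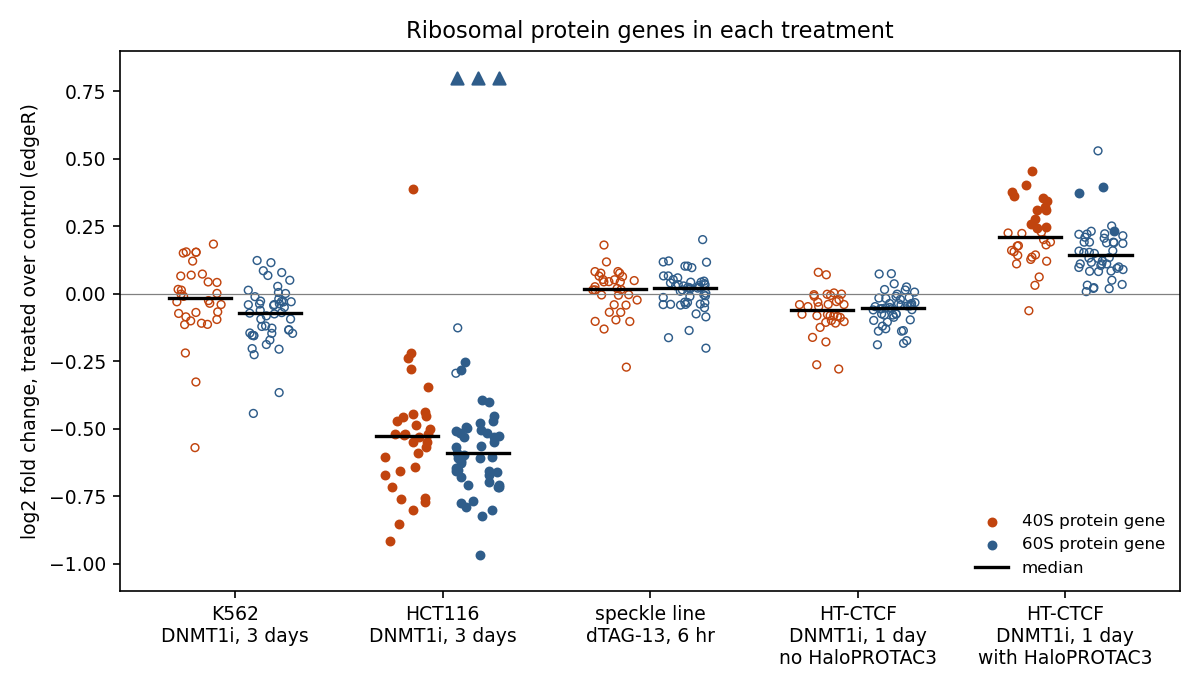
Log2 fold change of each ribosomal protein gene tested in each comparison, 40S and 60S members apart, on a log2 axis; filled points passed the test at adjusted p below 0.05, lines mark medians, and triangles stand for RPL39L, RPL10L and RPL3L, which lie above the axis. In HCT116 cells 75 of 81 members lie below 0 and passed, whereas in K562 and speckle comparisons none passed.

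The level of the whole set moved with the single genes. Members made 6.92% to 7.82% of gene counts in the 3 HCT116 libraries in DMSO and 5.17% to 5.63% in the 3 in DNMT1i, so the ranges did not overlap. The means were 7.48% ± 0.49 (SD, n = 3) and 5.32% ± 0.26 (SD, n = 3; exact permutation test, two-sided, p = 0.1, the smallest that 3 against 3 allows). The 40S part went from 2.81% to 2.04% and the 60S part from 4.67% to 3.28%. Counts assigned to the ribosomal protein pseudogenes went from 0.151% to 0.161% in DMSO to 0.115% to 0.125% in DNMT1i. Reads that HTSeq set aside as not uniquely aligned made 12.8% to 16.9% of the DMSO libraries and 11.5% to 12.9% of the DNMT1i libraries, and their part in the result was not tested.

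**Figure D2:**
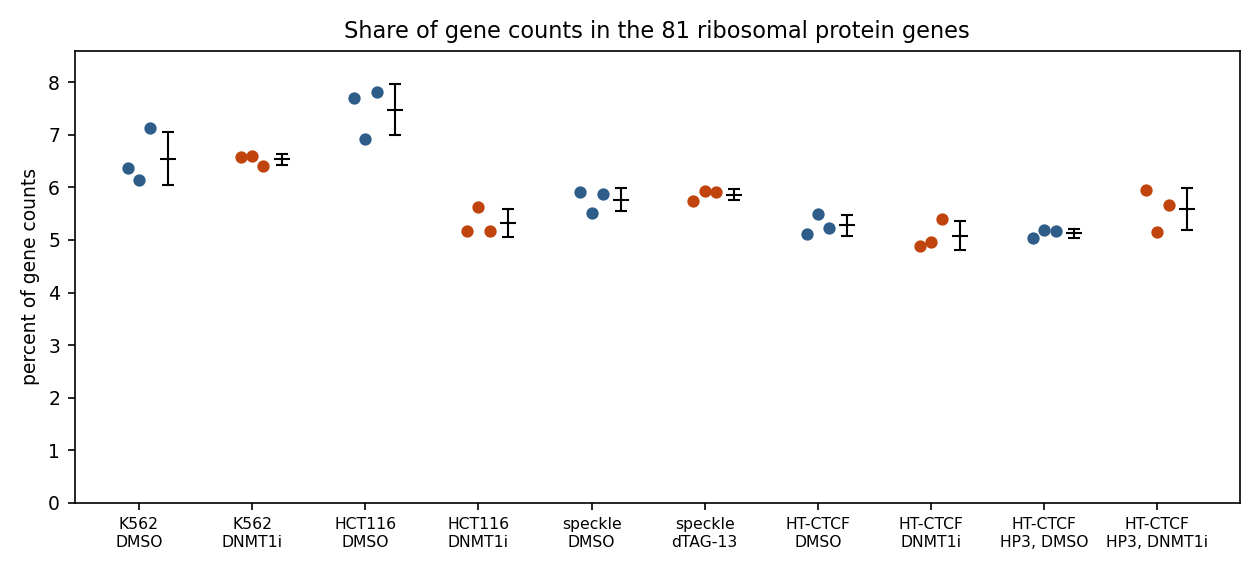
Share of gene counts taken by the 81 ribosomal protein genes in each of the 30 libraries (percent, 1 point per library, bars at the group mean with SD). HCT116 DNMT1i libraries lie at 5.17% to 5.63%, below the HCT116 DMSO libraries at 6.92% to 7.82%, and the K562 groups overlap.

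Members fell with and without a match to the TOP motif at an annotated start. The 46 members with the motif at an annotated start had a median log2 fold change of -0.59 in HCT116 cells, and all 46 values were below 0. The 18 members that have a promoter row and no such match had a median of -0.54, with 16 values below 0. The values not below 0 were those of RPL10L and RPS27L, whose starts are shown above, so the starts shown do not represent the 18. A member with a misplaced start or a shorter run, such as RPL3 with a run of 4, counts among these 18.

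Of the 4 L-suffix variants, RPL39L, RPL10L and RPL3L were at or near 0 in HCT116 cells in DMSO and present in DNMT1i. RPL39L, whose protein takes the place of RPL39 near the exit tunnel, had 7, 3 and 3 counts in DMSO (0.418, 0.171 and 0.172 CPM) and 124, 173 and 149 counts in DNMT1i (7.15, 7.68 and 7.68 CPM). The ratio of the summed levels was 29.996, with a 95% counting interval of 17.4 to 56.8. RPL39 itself fell, so that RPL39L went from 0.123% to 4.25% of the counts of the pair. RPL10L, an autosomal copy of X-linked RPL10 known from spermatogenesis, had 0 counts in each DMSO library and 33, 48 and 50 counts in DNMT1i. Taking the floor of 3 counts per library, it was at least 12.7-fold higher. RPL3L, the striated muscle copy of RPL3, had 2 counts in each DMSO library and 26, 53 and 41 counts in DNMT1i. Its ratio was 17.5, with a 95% counting interval of 7.80 to 48.6. RPL39L, RPL10L and RPL3L entered the edgeR test through their DNMT1i libraries alone, so its p-values are not given for them. These variants remained minor beside their partners: RPL10L made 0.541% of the RPL10 pair and RPL3L 0.119% of the RPL3 pair in DNMT1i. RPS27L, a copy of RPS27, was abundant in both groups. It stood at 88.13, 71.13 and 70.6 CPM in DMSO and 107.5, 93.37 and 99.47 CPM in DNMT1i. RPS27L rose by 0.39 on the log2 scale (SE 0.09, edgeR adjusted p = 0.000938) while RPS27 fell by 0.22 (SE 0.07, adjusted p = 0.0127). Counting intervals and floors cover counting error only.

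**Figure D3:**
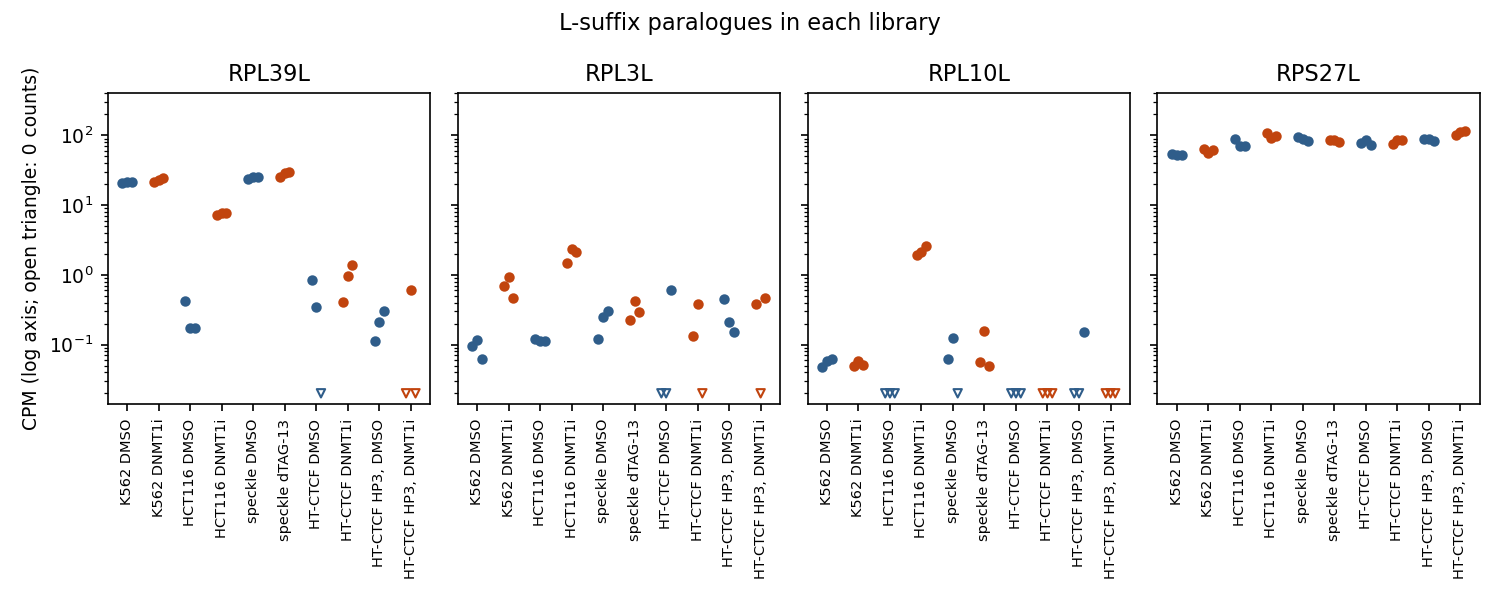
Level of the 4 L-suffix variants in each library (CPM on a log axis with libraries at 0 counts as open triangles at the lower edge, 1 point per library, control blue and treated orange). RPL39L stands near 7 CPM in HCT116 cells in DNMT1i, below 0.5 CPM in DMSO, and above 20 CPM in every K562 library, while RPS27L is above 50 CPM everywhere.

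Other genes of protein synthesis were called lower in smaller shares than the members in HCT116 cells, where 27.9% of all genes tested fell and 33.8% rose. Of the 77 mitochondrial ribosomal protein genes 75 were tested, of which 50 fell and 2 rose, with a median of -0.43 on the log2 scale. MRPS18B fell by 1.16 and MRPL24 by 1.09. Of 43 translation factor genes tested 22 fell and 4 rose (median -0.21). EEF1B2, an exchange factor of elongation, fell by 0.72 and EIF5, which acts in start codon selection, rose by 1.35. Of 64 ribosome biogenesis genes 29 fell and 4 rose (median -0.17), with NAT10, the rRNA acetyltransferase, down by 1.08. Of 20 RNA polymerase I genes 8 fell and 3 rose (median -0.16), and the largest subunit POLR1A fell by 0.69. Of 24 TOR and MYC regulators tested 11 fell and 6 rose (median -0.11). In that list EIF4EBP1, a repressor of cap-dependent translation, fell by 1.14 and DDIT4, an inhibitor of TOR complex 1, fell by 1.97, and SESN3, a stress-induced inhibitor of the same complex, rose by 1.595. All 18 members linked to Diamond-Blackfan anaemia, an inherited red cell aplasia, fell. These 18 are part of the member set, of which 92.6% fell, so their fall is not a separate result. The ribosomal proteins with names outside the rule moved the same way where they were called: 4 of 7 fell, among them RACK1, a 40S scaffold, by 0.62 and FAU, the precursor of RPS30, by 0.42. The marker genes of HCT116 cells were mixed in the same libraries, with 4 of 11 tested higher and 6 lower, and their summed level was 4318 to 4518 CPM in DMSO and 3777 to 4464 CPM in DNMT1i. The 10 fibroblast markers summed to 9.49 to 11.998 CPM in DMSO and 25.4 to 34.8 CPM in DNMT1i. The 8 lymphoid markers summed to 0.478 to 0.739 CPM in DMSO and 4.33 to 5.53 CPM in DNMT1i. The part of these changes in the result was not tested. In place of TMM, scaling by library size alone moved the median of all genes from 0.02 to 0.13 and left 70 members lower and 4 higher.

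In K562 cells the same dose and time gave no call among the members. Of 79 tested, 0 rose and 0 fell (edgeR, adjusted p below 0.05), while 6.47% of the 13726 genes tested were called higher and 2.38% lower. At an unadjusted p below 0.05 there were 4 members, DESeq2 called 1 higher (RPL3L) and the median log2 fold change was -0.04, beside -0.0021 over all genes. The 95% interval of a member's log2 fold change reached a median of 0.21 to each side.

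RPS2 stood at 1386, 1357 and 1624 CPM in DMSO and at 1427, 1610 and 1464 CPM in DNMT1i, with a log2 fold change of 0.04 (95% interval -0.15 to 0.24). RPLP0 gave 0.05 (-0.13 to 0.23), RPS13 gave -0.10 (-0.26 to 0.06) and RPS29 gave 0.07 (-0.31 to 0.45). The groups of RPS2 overlapped. Among the smallest adjusted p-values were those of RPL11 (-0.21, edgeR adjusted p = 0.138), RPL36A (-0.37, 0.175), RPS20 (0.15, 0.201), RPSA (0.15, 0.240) and RPL32 (-0.23, 0.256). RPL36A, at under 5 CPM, is among the overlapping genes whose levels are uncertain. A set of 17 members lay wholly below the DMSO range and 3 wholly above it, against 12.4% and 16.2% of all genes tested.

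The K562 counts moved with a single DMSO library. Replicate 3 in DMSO had members at 7.12% of gene counts, against 6.38% and 6.14% in replicates 1 and 2. Without it 11 members were called higher and 2 lower. Of the L-suffix variants, RPL39L was already expressed in K562 cells in DMSO, at 20.5 to 21.6 CPM, 7.66% of the counts of the RPL39 pair, and had a log2 fold change of 0.12 (SE 0.10, adjusted p = 0.555). RPL3L had 2, 2 and 1 counts in DMSO and 14, 16 and 9 counts in DNMT1i, a ratio of 7.39 with a 95% counting interval of 2.91 to 24.03; it was too low for the main test and passed DESeq2's (adjusted p = 0.0210). RPL10L had 1 count in each of the 6 libraries.

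The responses of the lines differed. When the 12 wild-type libraries were fitted together, 69 of 81 members responded lower in HCT116 than in K562 cells and 2 responded higher (edgeR test of the difference, adjusted p below 0.05), while 14.1% and 15.7% of 17237 genes were called lower and higher. The median difference was -0.53 on the log2 scale. The most negative differences were those of RPL22 (-1.04, SE 0.16, adjusted p = 7.33e-05), RPS2 (-0.97, SE 0.12, 7.27e-06), RPLP0 (-0.88, SE 0.11, 8.48e-06) and RPSA, the 40S laminin receptor precursor (-0.88, SE 0.10, 3.39e-06). RPL22 averaged only 87.6 CPM in HCT116 and 77.6 CPM in K562 cells in DMSO, and is among the overlapping genes whose levels are uncertain. RPL39L (4.74, SE 0.26, 7.3e-11) and RPL10L (8.41, SE 1.57) responded higher. RPL10L passed the low count filter of this fit only through the HCT116 DNMT1i libraries. It had 0 counts in each HCT116 DMSO library and 1 count in each K562 library, so its call is not a separate result. The difference for RPS29 was -0.31 (SE 0.22, adjusted p = 0.310). The DMSO and DNMT1i libraries of this fit are those of the line comparisons above, and line, medium and library preparation cannot be told apart.

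Between the lines in DMSO, 31 of 81 members (38.3%) were higher in HCT116 than in K562 cells and 11 (13.6%) were lower (edgeR). Of all genes tested, 39.6% were higher and 36.9% lower, so members differed between the lines no more often than genes in general. RPS26, a 40S protein at the mRNA exit, stood at 210.8, 180.3 and 221.6 CPM in HCT116 cells and at 57.23, 59.24 and 69.75 CPM in K562 cells, a log2 difference of 1.70 (SE 0.09, adjusted p = 1.95e-12). RPL13 was higher by 1.48, RPL37A by 0.80 and RPL30 by 0.71. RPL39L was lower by 6.38 in the same fit, with RPL36A lower by 0.90 and RPL14 by 0.45. Per kilobase of the representative transcript (MANE), the highest members were RPS18 (3329 CPM per kb), RPS12 (3038) and RPS20 (2560) in K562 cells in DMSO, and RPS12 (3245), RPS18 (3148) and RPL19 (3006) in HCT116 cells in DMSO. The median member stood at 766 and 929 CPM per kb. RPL3L and RPL10L were among the lowest in both lines. These ranks depend on the annotated length, which may exceed the length expressed. RPL37, whose MANE transcript is the longest at 7573 bases, stood at 2243 CPM in K562 cells in DMSO, above RPS18 at 1828 CPM.

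Removal of the speckle proteins SON and SRRM2 for 6 hr left the members without a call. Of 79 tested, 0 rose and 0 fell (edgeR), with 0 at an unadjusted p below 0.05 and without the replicate number as a block, while 1.57% of 14104 genes were called higher and 3.09% lower. DESeq2 called 0 as well, and the median log2 fold change was 0.02, beside -0.01 over all genes. The 95% interval of a member reached a median of 0.14 to each side, so changes of that size would be missed. RPS2 gave -0.02 (95% interval -0.15 to 0.10), RPLP0 -0.01 (-0.14 to 0.12) and RPS13 -0.10 (-0.32 to 0.12).

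Same-numbered speckle libraries deviated together to differing degrees (correlations 0.217, 0.550 and 0.816 for replicates 1, 2 and 3). Replicate 2 in DMSO correlated more with another number (0.719), and the labels give a number but name no pairs. A fit with the replicate number as a block called 4 members. RPS29 stood at 375.7, 397.9 and 307.8 CPM in DMSO replicates 1, 2 and 3 and at 336.8, 317.9 and 240.8 CPM in the dTAG-13 libraries of the same numbers, so it was lower in each pair although the groups overlapped. RPS29 (blocked log2 fold change -0.28, edgeR adjusted p = 6.72e-05) and RPL39 (-0.14, adjusted p = 0.0347) were lower, and RPS9 (0.18, adjusted p = 0.0136) and RPL39L (0.20, adjusted p = 0.0437) were higher. RPS9, a 40S protein, was lower in dTAG-13 in pair 1 (367.5 and 361.6 CPM) and higher in pairs 2 and 3. Without the block the adjusted p-values were 0.278 for RPS29, 0.309 for RPL39, 0.445 for RPS9 and 0.265 for RPL39L. Of the 63 ribosome biogenesis genes tested without the block, 7 fell and 1 rose. NOP56, a box C/D snoRNP protein, fell by 0.66, and MDN1, a giant ATPase of 60S maturation, rose by 0.50.

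In HT-CTCF cells, 1 day of DNMT1i went with slightly higher ribosomal protein mRNAs where CTCF had been removed and with no call where it had not. With HaloPROTAC3, 16 of 78 members tested rose and 0 fell (edgeR; 2.86% of 12690 genes were called higher and 2.55% lower). The median was 0.17 on the log2 scale, a level 12.4% higher, beside 0.01 over all genes, and 77 of 78 values were above 0. Without HaloPROTAC3, 0 of 78 rose and 0 fell (1.98% and 0.504% of all genes), with 7 members at an unadjusted p below 0.05 and 0 called by DESeq2, and the median was -0.05. There 0 members lay wholly above their DMSO libraries and 2 (RPS21 and RPS29) wholly below, against 10.3% and 10.1% of all genes tested. RPL39L, RPL10L and RPL3L were too low to be tested here.

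Of the 16, 13 were 40S genes (RPS4X, RPS7, RPS12, RPS13, RPS14, RPS15A, RPS16, RPS20, RPS21, RPS26, RPS27L, RPS28 and RPS29) and 3 were 60S genes (RPL9, RPL10 and RPL27). The medians were 0.21 over the 40S members and 0.14 over the 60S members. RPS13 stood at 348.5, 358.9 and 335.0 CPM in DMSO with HaloPROTAC3 and at 488.5, 434.1 and 455.8 CPM in DNMT1i with HaloPROTAC3. The groups did not overlap, and its log2 fold change was 0.40 (SE 0.07, adjusted p = 0.00094). RPS29 rose by 0.45, RPL27 by 0.39, RPL10 by 0.37, RPS21 by 0.36 and RPS26 by 0.35. RPS2 (0.14, SE 0.09, adjusted p = 0.416) and RPLP0 (0.23, SE 0.08, adjusted p = 0.0766) did not pass. In the same contrast 31 members lay wholly above their DMSO libraries, against 13% of all genes tested.

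The size of this result depends on single libraries, whereas its direction did not turn. The count was 6 without DNMT1i replicate 1 with HaloPROTAC3, 28 without replicate 2 of that group, 9, 10 and 7 without DMSO replicates 1, 2 and 3 with HaloPROTAC3, and 0 with the size limit the study used (0.5 on the log2 scale). DNMT1i replicate 2 with HaloPROTAC3 held 12.2% reads that were not uniquely aligned, against 8.71% and 8.76% in replicates 1 and 3, and members at 5.15% of gene counts, against 5.95% and 5.66%. The part of that difference in the result was not tested.

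**Figure D4:**
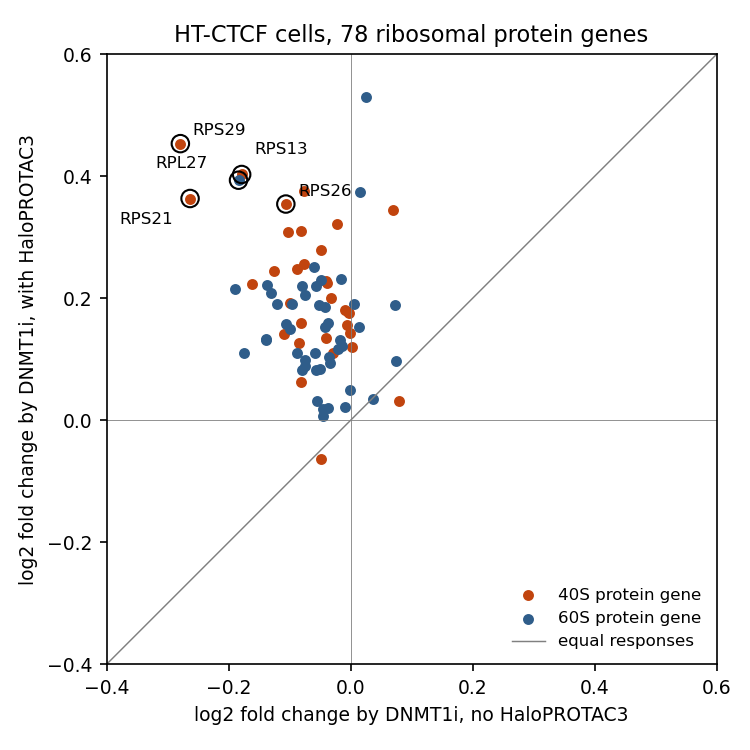
Log2 fold change of each of the 78 tested ribosomal protein genes on DNMT1i in HT-CTCF cells without HaloPROTAC3 (horizontal axis, log2) and with it (vertical axis, log2), with the members called for the difference circled and named. The 75 members with a positive difference lie above the diagonal, and RPS29 is farthest from it.

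The difference between these responses was tested itself. Of 78 members 5 had a higher response with than without HaloPROTAC3 and 0 a lower one (edgeR interaction test), whereas only 0.0552% of all genes, 7 in number, were called higher and 0.213% lower. The other genes called higher were ERLEC1, a lectin of the endoplasmic reticulum, and GOLT1B, a Golgi transport protein, both named after their values were seen. The median difference over the members was 0.24 on the log2 scale, beside 0.01 over all genes, and 75 of 78 were above 0.

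RPS29 stood at 240.5, 238.6 and 234.0 CPM in DMSO and 170.1, 193.7 and 226.3 CPM in DNMT1i without HaloPROTAC3, and at 181.9, 231.9 and 201.3 CPM in DMSO and 312.6, 239.6 and 289.7 CPM in DNMT1i with it. The DNMT1i libraries thus lay below DMSO without HaloPROTAC3 and above DMSO with it, and the difference was 0.73 (SE 0.14, adjusted p = 0.0154). RPS21, a small 40S protein, had a difference of 0.63 (SE 0.12), RPS13 of 0.58 (SE 0.11), RPL27 of 0.58 (SE 0.12) and RPS26 of 0.46 (SE 0.10). RPS13 stood at 410.8, 391.2 and 344.7 CPM in DMSO and 325.9, 320.7 and 367.2 CPM in DNMT1i without HaloPROTAC3, groups that overlapped. RPLP0 (0.25, adjusted p = 0.308) and RPS2 (0.18, adjusted p = 0.560) did not pass. The 5 calls came to 0 when any of DMSO replicate 3 with HaloPROTAC3, DNMT1i replicates 1 or 2 without it or DMSO replicate 2 without it was left out, to 3 without DNMT1i replicate 1 with HaloPROTAC3 or DMSO replicate 1 without it, and to 10 without DMSO replicate 3 without it. DESeq2 called 16.

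HaloPROTAC3 alone changed few members. In DMSO 1 member rose and 3 fell of 78 (10.1% and 7.28% of all genes), with a median of 0.00. RPL36, a 60S protein, stood at 455.0, 567.9 and 587.5 CPM without HaloPROTAC3 and at 375.2, 369.1 and 417.9 CPM with it, ranges that did not overlap, and fell by 0.47 (SE 0.09, adjusted p = 0.000163). RPS10 fell by 0.50 (adjusted p = 0.0400), RPL18 by 0.22 (adjusted p = 0.0343), and RPL23A rose by 0.33 (adjusted p = 0.0448). The rise of RPL23A was not called when any single DMSO library was left out, nor was the fall of RPS10. The 3 lower calls came to RPL36 alone with no low count filter, with the replicate block, and without replicate 1 or 3 with HaloPROTAC3 or replicate 2 without it. With the size limit of 0.5 they came to RPS10 alone.

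In DNMT1i the same comparison called 50 members higher and 1 lower (12.2% and 10.1% of all genes), with a median of 0.25, a level 18.6% higher. A total of 31 members lay wholly above the DNMT1i libraries without HaloPROTAC3 and 1 wholly below, against 18.8% and 18% of all genes tested. Both subunits took part, with 20 40S and 30 60S genes. RPS29 rose by 0.52, RPL27 by 0.48, RPS21 by 0.48, RPS20 by 0.46, RPS13 by 0.44 and RPS26 by 0.41. RPS26 stood at 237.7, 253.5 and 248.9 CPM in DNMT1i alone and at 349.2, 310.7 and 325.4 CPM in DNMT1i with HaloPROTAC3, ranges that did not overlap. RPL36 fell again, by 0.41. Scaling by library size alone left 20 higher members and moved the median of all genes from -0.00011 to -0.10, and the size limit of 0.5 left 1. The count was 32 and 30 without DNMT1i replicates 1 and 3 with HaloPROTAC3 and 23 and 24 without DNMT1i replicates 1 and 2 without it. The 4 HT-CTCF contrasts share libraries, so they are not independent of each other. In this comparison 14 of 63 ribosome biogenesis genes fell and 2 rose, and 10 of 43 translation factor genes rose and 3 fell, among them EEF1A1, the main elongation factor, up by 0.42, and EEF1A2, its neuronal and muscle copy, down by 1.53.

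The exon bin counts, held here for the 18 wild-type and speckle libraries, show where along a gene the reads lie. A bin is a stretch of a gene between annotated exon boundaries, and its usage is its share of the gene's bin counts. In HCT116 cells 38 bins were used more and 12 less in DNMT1i (edgeR, adjusted p below 0.05) of 1668 tested, in 27 of 79 members, beside 0.593% and 0.253% of all 201926 bins. Bins of a gene share reads and are not independent.

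The 12 bins used less lie in the 3′ UTR of the MANE transcript (RPL37 and RPS23) or downstream of it (RPS20), and in all 12 the libraries of the groups did not overlap. RPL37, a 60S protein, has a 3′ UTR bin at chr5:40825262-40827702 (hg38, minus strand) that took 1.69%, 1.72% and 1.64% of the gene's bin counts in DMSO and 0.869%, 0.753% and 1.002% in DNMT1i, a log2 change relative to the gene of -0.95 (SE 0.13, adjusted p = 1.47e-07). RPS23, a 40S protein of the decoding centre, has a 3′ UTR bin at chr5:82274524-82275113 (minus strand) at 0.276%, 0.270% and 0.355% in DMSO and 0.141%, 0.179% and 0.138% in DNMT1i (-0.96, SE 0.16, adjusted p = 1.72e-05). These bins carry a small share of each gene's reads.

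Of the 38 bins used more, 24 lie in the 3′ UTR and 29 are at most 30 bases wide, and in 15 the usage of the 2 groups overlapped. The clearest of the longer ones is an intronic bin of RPS27A, which encodes ubiquitin fused to a 40S protein, at chr2:55232709-55232794 (plus strand). It took 0.565%, 0.669% and 0.530% in DMSO and 0.995%, 1.08% and 0.970% in DNMT1i, ranges that did not overlap (0.80, SE 0.15, adjusted p = 0.000186). The number used more fell to 8, 15 and 13 without DNMT1i replicate 1, DNMT1i replicate 3 and DMSO replicate 3 and came to 66 without DMSO replicate 2. The number used less came to 6, 7 and 7 without DNMT1i replicates 1, 2 and 3.

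K562 cells had no called bin of 1670 tested in DNMT1i (edgeR; 60 at an unadjusted p below 0.05 and 0 called by limma, and 0.0337% and 0.0155% of all bins were called higher and lower). Speckle depletion raised the usage of 4 of 1702 bins, in RPL10 and RPL28, and lowered 0 (0.096% and 0.0358% of all bins; 82 member bins at an unadjusted p below 0.05). An intronic bin of RPL10, the 60S protein that is among the last to join, at chrX:154399595-154399802 (plus strand), took 0.108%, 0.159% and 0.157% in DMSO and 0.351%, 0.271% and 0.291% in dTAG-13. Every dTAG-13 library lay above every DMSO library, a log2 change of 1.103 (SE 0.16, adjusted p = 8.81e-05). An intronic bin of RPL28, a 60S protein, at chr19:55387285-55387610 (plus strand), took 0.052%, 0.052% and 0.044% in DMSO and 0.113%, 0.142% and 0.126% in dTAG-13 (1.36, SE 0.26, adjusted p = 0.00119). The next bin of the same intron was used more as well (1.095, SE 0.22, adjusted p = 0.00334), and a 3′ UTR bin of RPL28 gave 0.73 (SE 0.16, adjusted p = 0.0136). The intronic bins of RPL10 and RPL28 carry a very small share of each gene's reads, so their changes rest on few reads. Against these, the gene counts of RPL10 and RPL28 did not pass the test. The limma test called 1 of the 4 bins, and with the replicate block 18 bins were higher and 15 lower. The number higher was 2 without dTAG-13 replicate 2 and 1 without DMSO replicate 1, and the number lower was 2 without dTAG-13 replicate 1 and 1 without DMSO replicate 3.

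**Figure D5:**
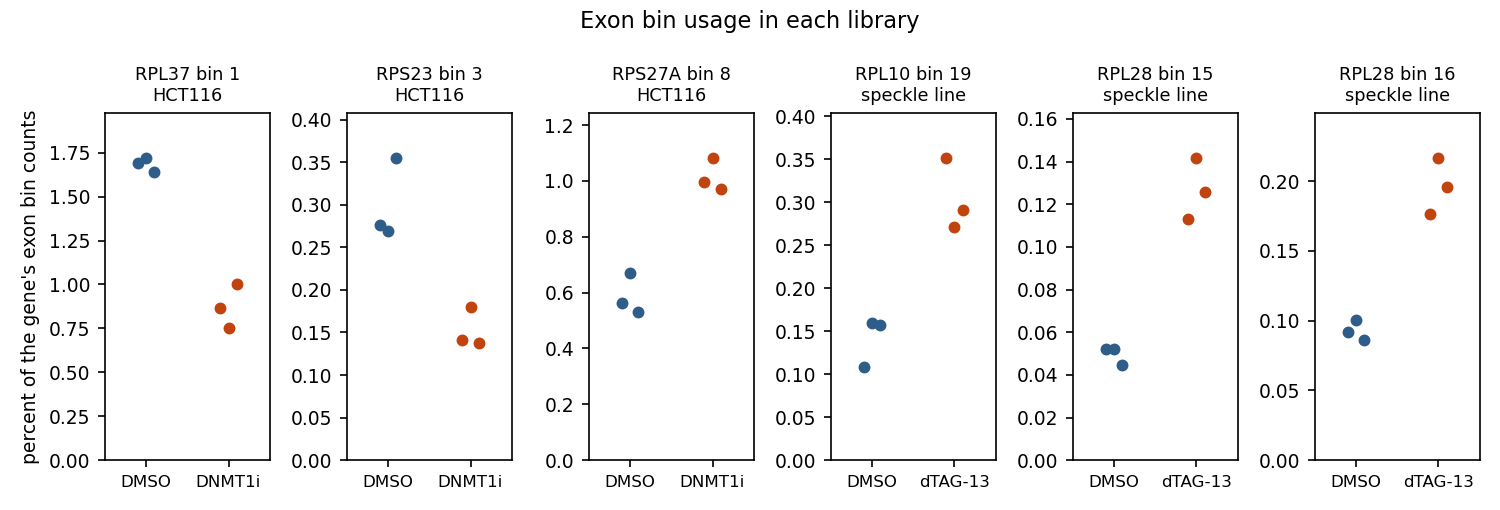
Usage of the called exon bins named in the text, in percent of the gene's bin counts, for each library of both groups (1 point per library, DMSO blue and treated orange, each panel with its own axis from 0). The RPL37 and RPS23 bins are lower in all 3 DNMT1i libraries of HCT116 cells, and the RPL10 and RPL28 bins are higher in all 3 dTAG-13 libraries.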

How the data were processed

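The authors extracted unique molecular identifiers and removed duplicate reads with UMI-tools 1.1.1, trimmed with cutadapt 2.7, aligned to hg38 with STAR 2.6.0 and counted reads per gene with HTSeq. They deposited raw gene counts for 30 libraries and raw exon bin counts, of which those of 18 libraries were used; bin counts of the 12 HT-CTCF libraries were not analysed here. Reads without a single gene made 17.1% to 23.6% of a library and were left out. The authors' comparison tables hold log2 fold changes and p-values from DESeq2 1.28 in R 4.0.2 and an exon usage test; they were not used, nor were 18 columns of per-sample values in them. Whether HTSeq counted by strand is not given here, so antisense overlaps are uncertain. Reads aligned to several places are not in the counts, which lowers genes with close copies.

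Gene counts were tested with edgeR 4.0.16 in R 4.3.3 (quasi-likelihood test, TMM scaling, filterByExpr, Benjamini-Hochberg adjustment over all genes tested, threshold 0.05). K562, HCT116 and speckle libraries were fitted apart, the 4 HT-CTCF groups together, and the 12 wild-type libraries together for the differences between lines. Exon bins were tested with edgeR's diffSpliceDGE and, as an alternative, limma 3.58.1. DESeq2 1.42.0, other scalings, filters, a size limit, left-out libraries and a replicate block were alternatives. Standard errors were computed as the absolute log2 fold change divided by the root of F. Low-count ratios have exact 95% counting intervals, and the floor is 3 counts per library. Scripts were tested on simulated data. No library pair within a group agreed within sampling noise (lowest chi-square per degree of freedom 1.79).

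Replicate numbers come from the sample labels. In the speckle libraries same-numbered samples deviated together (correlations 0.217, 0.550 and 0.816 over 8613 genes), though replicate 2 in DMSO correlated more with another number (0.719). Blocked values are therefore printed there for the members that the blocked fit called and for the counts of members and bins. All other speckle values come from fits without the block.

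The members and lists were chosen with earlier results of these data known. Named were RPS2, RPLP0, RPS13, RPS29, L-suffix, stalk, 5S and X-linked members, the 6 members with the smallest p per comparison, called members against the prevailing direction, the 3 highest and lowest per length, up to 4 genes of each other list, and the bin with the smallest p in up to 6 members. Other members named were chosen after their values were seen, and some genes the rule took are left out of this text. Gene identifiers matched GENCODE 44 for 60463 of 60664. Promoter sequence is from RefSeq (GRCh38.p14).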

Additional observations from a re-analysis of the deposited data

Results flagged for a closer look

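The response to DNMT1i in HT-CTCF cells differed with HaloPROTAC3 for 5 members by the interaction test. The difference, with minus without HaloPROTAC3 on the log2 scale, was 0.73 for RPS29, 0.63 for RPS21, 0.58 for RPS13, 0.58 for RPL27 and 0.46 for RPS26. The calls went to 0 without DMSO replicate 3 with HaloPROTAC3, without DNMT1i replicate 1 or 2 without it, or without DMSO replicate 2 without it.

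The response to DNMT1i differed between HCT116 and K562 cells by the test of the difference itself, with 69 members lower and 2 higher in HCT116. The difference was 4.74 for RPL39L, -0.97 for RPS2 and -0.88 for RPLP0 on the log2 scale. RPL39L had few counts in HCT116 cells in DMSO (13 in all), and line and library preparation cannot be told apart. The other higher member, RPL10L, passed the low count filter only through the HCT116 DNMT1i libraries.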

How the results depend on the processing

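Of 2025 values recomputed under other settings, 1864 kept their side of the threshold or stayed close to the count, and 0 were labelled reversed. Counts were labelled only as same or moved. Uncalled values near 0 could change sign without the label reversed. With a library left out, the K562 DNMT1i median ran from -0.10 to 0.03, and RPS2 there from -0.01 to 0.13. RPL10L and RPL3L were too low to test in the K562, speckle and HT-CTCF libraries, and RPL39L in the HT-CTCF libraries. The median 95% half-width of a member's log2 fold change was widest for DNMT1i in K562 cells (0.21) among the comparisons of 2 groups within a line. Where a count below moved, the cause was not tested, except that a size limit and a left-out library remove calls or samples by construction.

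In HCT116 cells the median log2 fold change was -0.45 with library size only and -0.61 to -0.53 with a library left out. In K562 cells DESeq2 and no low count filter each called 1 member higher, no filter called 1 lower, and leaving out a library gave 0 to 11 higher and 0 to 2 lower. For speckle depletion no filter called 1 lower. With the size limit of 0.5 the difference of responses between lines had 45 lower members, and the difference between lines in DMSO 19 higher and 2 lower. For HT-CTCF cells, DNMT1i without HaloPROTAC3 had 1 lower member with no filter and 0 to 1 with a library left out. With HaloPROTAC3 it had 0 higher members with the size limit and 6 to 28 with a library left out. The interaction had 16 higher members by DESeq2 and 0 to 10 with a library left out. HaloPROTAC3 in DMSO had 0 higher members with the size limit, library size only or TMM without members, 2 with no filter or the 2 groups only, and 0 to 2 with a library left out. It had 1 lower member with the size limit or no filter, 6 with library size only and 1 to 3 with a library left out, and its median was -0.065 with library size only. HaloPROTAC3 in DNMT1i had 1 higher member with the size limit, 20 with library size only and 23 to 60 with a library left out, and 0 lower with the size limit and 1 to 2 with a library left out. Exon bins called with a library left out were 0 to 1 higher and 0 to 2 lower in K562, 8 to 66 higher and 6 to 11 lower in HCT116, and 1 to 4 higher and 0 to 2 lower for speckle depletion, where limma called 1 higher.

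With the replicate block, speckle depletion had 2 higher and 2 lower members, and 18 higher and 15 lower bins, and HaloPROTAC3 in DMSO had 1 lower member. The block moved no other count of members or bins by over 1.5 times. Outside the speckle libraries the samples share only a number: same-numbered samples did not all correlate above 0.1.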
